A study of Mus musculus with 10 samples.

Results

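Solute carriers, named with the prefix Slc and a family number, were followed as 1 group of genes across 5 pools of mouse liver RNA. Members were all genes whose array probe sets carry 1 symbol of that form in the platform annotation, leaving out Slc25a1, Slc27a5 and Slc2a2. They numbered 148 of the 8251 genes measured and came from 40 families. Where a gene had several probe sets, the one brightest on average over the 10 arrays stood for it, and 28 members had more than 1 probe set. The symbol rule also takes in 3 proteins that bind transporters or are named after them (Slc9a3r1, Slc9a3r2 and Slc4a1ap) and are no carriers themselves.

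Livers came from male mice and were measured on Affymetrix MG_U74Av2 arrays, where short oligonucleotide probes report each transcript. The human SREBP-1a transgene of TgSREBP-1a mice and the human SREBP-2 transgene of TgSREBP-2 mice each encode the active nuclear protein, and the promoter that drives them is not given in the sources used here. Both lines and wild type littermates, aged 12 to 16 weeks, were fed for 2 weeks on food high in protein and low in carbohydrate (high-protein). Scap-/- mice carried MX1-Cre. They and the corresponding wild type mice were 10 to 12 weeks old, ate Teklad chow, and received 4 injections of polyinosinic-polycytidylic acid, the last of them 14 days before the livers were taken. This agent raises interferon, which switches on MX1-Cre in liver and in other organs. Neither Scap nor the introduced human genes were analysed here, so no targeted gene checks the labels. RNA of 5 mice per group was pooled, and each pool was hybridised to 2 arrays. Differences and p-values therefore compare pools and carry no error between mice, with n = 2 arrays per pool throughout. The replicates are technical, and their number limits the precision.

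Solute carriers move ions, metals, amino acids, sugars, organic anions, nucleotides and vitamins across the plasma membrane and the membranes of organelles. In liver they supply hepatocytes from the blood, load bile, and connect the cytosol with mitochondria, peroxisomes and the endoplasmic reticulum. SREBPs are transcription factors of cholesterol and fatty acid synthesis, and SCAP escorts them to the Golgi where they are activated. Several Slc25 carriers lie beside these pathways because they exchange dicarboxylates, phosphate or nucleotides between mitochondria and cytosol.

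Duplicate arrays of a pool lay close for the solute carriers. Their median absolute difference was 0.08 log2 in both chow-fed pools and 0.11 to 0.12 in the high-protein pools. Duplicates at least 1.5-fold apart numbered 2 members in each high-protein pool and 0 in the chow-fed pools. Over all 8251 genes they numbered 101 in high-protein wild type, 151 in TgSREBP-1a and 55 in TgSREBP-2. Chow-fed wild type had 0 and the Scap knockout 6. The largest gap among the members was that of Slc23a3 in high-protein wild type, at 0.95. Of the members, 87 had a mean log2 signal above 6.38, the median of all values on the arrays. Signals of different probe sets do not order the genes by transcript level. The hepatocyte marker list had 8 of 10 genes measured, with summed linear signals of 39160 to 45833 over the 10 arrays.

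Most solute carriers differed little among the pools. For 121 of 148, the 5 pool means lay within 1.5-fold, and for 9 they spread over at least 2-fold. These counts are given without a share over all genes. Against wild type, the median absolute log2 difference of the TgSREBP-1a pool was 0.124 over the members and 0.135 over all genes. For the TgSREBP-2 pool it was 0.123 and 0.106, and for the Scap knockout 0.0699 and 0.0733. By this measure small differences were not particular to solute carriers. Calls required both an adjusted p under 0.05 (limma, Benjamini-Hochberg over 8251 genes) and a difference of 1.5-fold or more. In TgSREBP-1a, 2 members were called higher and 5 lower, against 4.78% and 2.59% of all genes. That is 4.73% of the members called either way, below the 7.37% of all genes. In TgSREBP-2, 3 members were called higher and 0 lower, which is 2.03% of the members against 2.18% and 0.388% of all genes, or 2.57% either way. At an unadjusted p under 0.05, limma had 28 members in that comparison, 19 higher and 9 lower, or 18.9% against 17.1% of all genes. An adjusted p under 0.05 without the fold was reached by 23 members in TgSREBP-1a (15.5% against 16.6% of all genes) and by 11 in TgSREBP-2 (7.43% against 5.05%). In the Scap knockout limma called 0 members, against 1.66% of all genes, while 16 had an unadjusted p under 0.05, 7 higher and 9 lower (10.8% against 9.78% of all genes). The members' median log2 difference was -0.03 in both transgenic comparisons and 0.0017 for the Scap knockout, beside -0.03, -0.02 and 0.0047 over all genes. Both transgenic comparisons share the high-protein wild type pool.

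**Figure D1:**
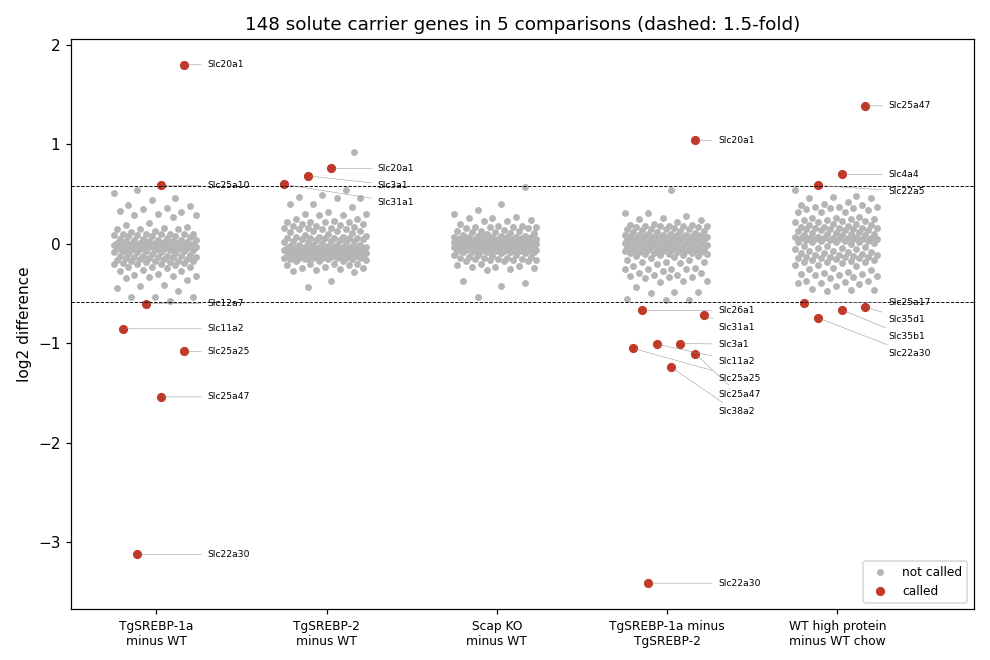
Log2 differences of the 148 solute carrier genes (y axis) in 5 comparisons (x axis), 1 point per gene, with called genes in red and named; dashed lines mark 1.5-fold. Slc22a30 at -3.12 and Slc20a1 at 1.80 stand furthest out against wild type, both in TgSREBP-1a, and the Scap knockout column holds no called gene.

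Among carriers of organic ions and bile acids, Slc22a30, a mouse gene of the organic anion and cation transporter family, fell most of all members. Its log2 signal was 8.65 and 8.21 in high-protein wild type and only 5.53 and 5.08 in TgSREBP-1a, while TgSREBP-2 read 8.90 and 8.53. In the chow-fed set it was 9.14 and 9.22 in wild type and 8.91 and 9.39 in the Scap knockout. Both TgSREBP-1a arrays lay far below the other 8, whose values overlapped between TgSREBP-2 and its wild type and within the chow-fed set. In TgSREBP-1a it fell by 3.12 ± 0.21 log2 (SE, n = 2), or 8.72-fold (adjusted p = 2.88e-06). Against TgSREBP-2 the gene was 10.6-fold lower in TgSREBP-1a (-3.41 ± 0.21, adjusted p = 1.81e-06). A second probe set, which the annotation assigns to both Slc22a28 and Slc22a30 and which is no member, stood at 7.53 and 7.53 in TgSREBP-1a and at 9.66 and 9.59 in its wild type. That is a log2 difference of -2.09, given without a test. Signals of these neighbouring family genes may be shared between probes, so the transcript behind the decrease is uncertain.

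The other 14 carriers of this class were not called in any transgenic pool or in the Scap knockout. Slc10a1, the main bile acid uptake transporter of hepatocytes, stood at 0.15 ± 0.12 and 0.40 ± 0.12 in the SREBP-1a and SREBP-2 pools and at -0.38 ± 0.12 in the Scap knockout (adjusted p = 0.474, 0.0950 and 0.204). Its other probe sets gave -0.23 and -0.10, 0.17 and -0.08, and -0.46 and 0.0045 in these comparisons, none called. Slc22a5, the carnitine transporter, was at -0.44 ± 0.10 in TgSREBP-1a, short of 1.5-fold (adjusted p = 0.0136). Slc22a18 stood at 0.32 and 0.40 in TgSREBP-1a and TgSREBP-2 (adjusted p = 0.0860 and 0.0760).

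The Slc25 family, whose proteins mostly sit in the inner mitochondrial membrane, had 19 measured members. In TgSREBP-1a 1 rose and 2 fell, beside 4.78% and 2.59% of all genes, and the class median was 0.02. Slc25a47, a carrier known for its expression in liver, had log2 signals of 11.22 and 11.21 in high-protein wild type. TgSREBP-1a read 9.59 and 9.76, and TgSREBP-2 read 10.78 and 10.77. It read 9.77 and 9.89 in chow-fed wild type and 10.12 and 10.14 in the Scap knockout. The 3 high-protein pools did not overlap, and TgSREBP-1a lay just below the chow-fed wild type. In TgSREBP-1a it fell 2.91-fold (-1.54 ± 0.08, adjusted p = 5.61e-07). In TgSREBP-2 it stood at -0.44 ± 0.08 (adjusted p = 0.0138), short of 1.5-fold, and the transgenic pools differed by -1.10 ± 0.08 (adjusted p = 1e-05).

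Slc25a25, a carrier that exchanges ATP-Mg for phosphate, separated TgSREBP-1a from TgSREBP-2 as well. Its signals were 9.16 and 9.15 in TgSREBP-1a, 10.36 and 10.12 in its wild type and 10.28 and 10.14 in TgSREBP-2. The TgSREBP-2 arrays lay between the wild type arrays, while TgSREBP-1a stood at -1.08 ± 0.10 log2, or 2.12-fold lower (adjusted p = 2.19e-05). In the Scap knockout the gene read 9.73 and 9.81 against 10.18 and 10.20, a difference of -0.42 ± 0.10 (adjusted p = 0.0462) that did not reach 1.5-fold. Slc25a10, the mitochondrial dicarboxylate carrier, was higher in TgSREBP-1a at 9.33 and 9.34 against 8.77 and 8.72. That difference of 0.59 ± 0.08 (adjusted p = 0.000382) was the smallest called in this comparison. It fell below 1.5-fold without replicate 2 of wild type (0.57) or of TgSREBP-1a (0.58), after quantile normalization (0.53) and with 32 added to the linear signals (0.55). In TgSREBP-2 the same gene stood at 0.46 ± 0.08 (adjusted p = 0.00608). Slc25a5, an ADP/ATP carrier, and Slc25a44, a carrier of branched-chain amino acids, passed the adjusted p but not 1.5-fold in TgSREBP-1a (0.46 and 0.54, adjusted p = 0.00172 and 0.000586). The other probe sets of Slc25a5 gave 0.14 and 0.17 (adjusted p = 0.42 and 0.54). Slc25a15, the ornithine carrier of the urea cycle, was at 0.02 ± 0.12 and -0.01 ± 0.12 in the transgenic comparisons.

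Of 22 carriers of inorganic ions, Slc20a1 rose in both transgenic pools. It encodes a sodium-dependent phosphate transporter of the plasma membrane. Its log2 signals were 6.43 and 6.41 in high-protein wild type, 7.28 and 7.08 for TgSREBP-2, then 8.45 and 7.99 for TgSREBP-1a, so the pools stood in this order without overlap. It rose 3.48-fold in TgSREBP-1a (1.80 ± 0.14, adjusted p = 1.1e-05) and 1.69-fold in TgSREBP-2 (0.76 ± 0.14, adjusted p = 0.0125). Slc20a1 was the only member called in more than 1 of the 3 comparisons with wild type. TgSREBP-1a exceeded TgSREBP-2 by 1.04 ± 0.14 (adjusted p = 0.000798). With wild type replicate 1 or 2 left out, limma no longer called it in TgSREBP-2 (adjusted p = 0.0616 and 0.0664), nor with TgSREBP-2 replicate 1 left out (adjusted p = 0.129), although the difference stayed between 0.59 and 0.86 over the 14 alternatives run. In the Scap knockout it stood at 6.87 and 7.14 against 6.58 and 6.63, or 0.40 ± 0.14 (adjusted p = 0.314), and so was not called. Slc34a1 and Slc34a2, phosphate transporters of another family, lay between -0.13 and -0.02 in both transgenic comparisons.

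Slc12a7, a potassium-chloride cotransporter, was lower in TgSREBP-1a at 6.95 and 7.13 against 7.71 and 7.57. The difference of -0.60 ± 0.11 (adjusted p = 0.0032) lay just past 1.5-fold. It fell short of that without replicate 1 of wild type (-0.53) or of TgSREBP-1a (-0.51), after median centring (-0.58), and with 32 added (-0.50). Slc26a1, a sulfate and oxalate exchanger, differed between the transgenic pools, with 6.96 and 6.87 for TgSREBP-1a and 7.63 and 7.54 for TgSREBP-2 on either side of wild type at 7.33 and 7.20. TgSREBP-1a stood at -0.67 ± 0.08 against TgSREBP-2 (adjusted p = 0.000426), while neither pool reached 1.5-fold against wild type. The difference between the transgenic pools fell short of 1.5-fold with 32 added (-0.55). Slc4a4, a sodium bicarbonate cotransporter, was at -0.54 ± 0.10 in TgSREBP-1a (adjusted p = 0.00487), short of the fold required. The remaining members of the class included Slc4a2, an anion exchanger, at 0.38 and 0.47 in the transgenic pools (adjusted p = 0.0216 and 0.0172).

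**Figure D2:**
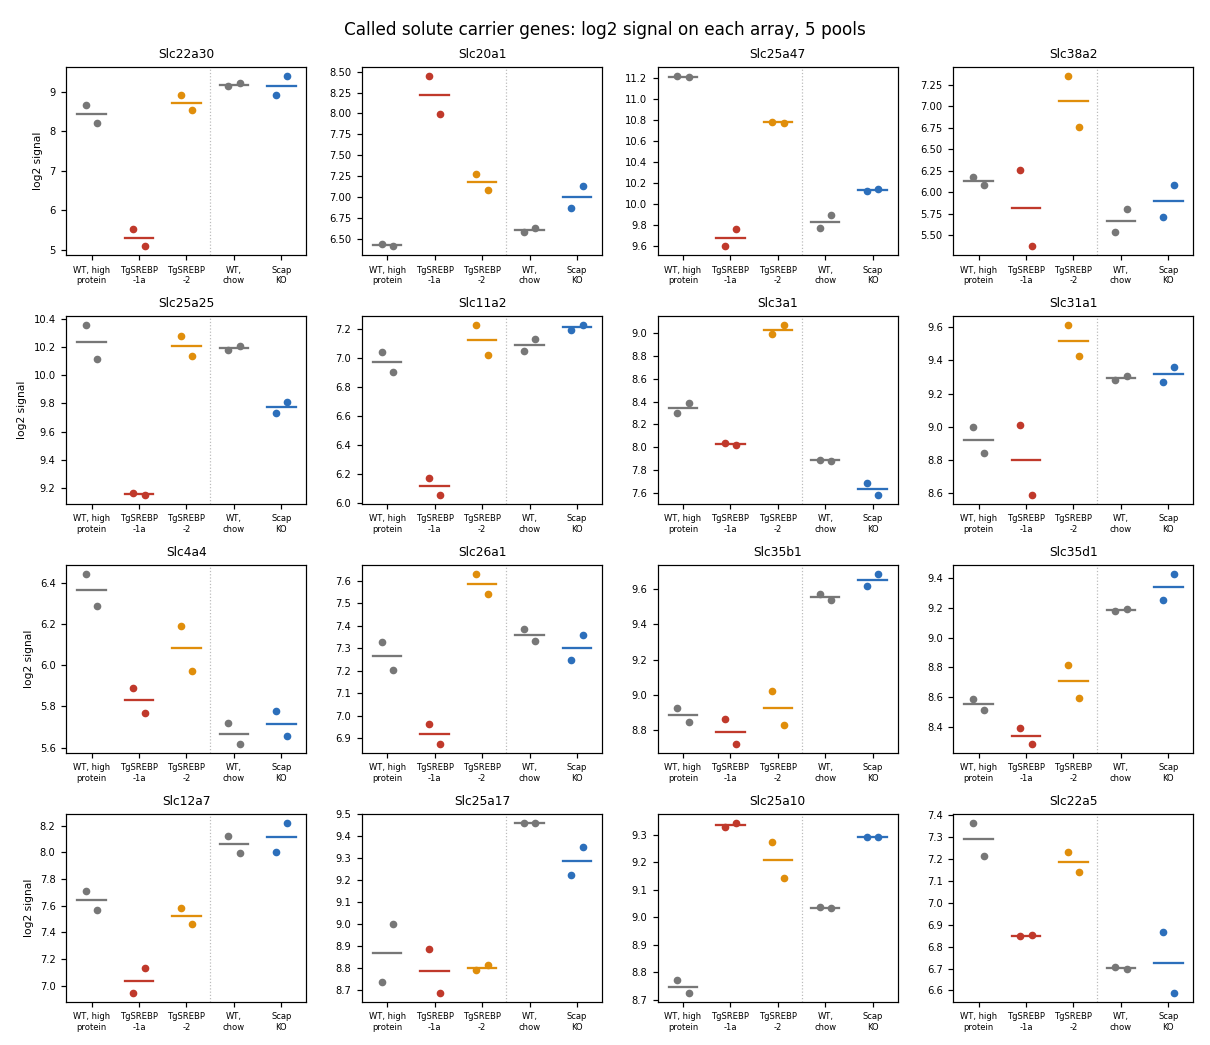
Log2 signal (y axis, scaled per gene) on each array for the 16 solute carrier genes called in any of 5 comparisons. Points are arrays, bars are means of 2 arrays, and the dotted line parts the high-protein set (left) from the chow-fed set (right). Slc22a30 is lowest on the TgSREBP-1a arrays (5.53 and 5.08), and Slc20a1 is highest there (8.45 and 7.99).

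Promoter sequences are shown for 4 called genes, 1 each from the organic ion, Slc25, inorganic ion and amino acid classes. They were chosen after their values were seen, from the members called between the transgenic pools under every alternative. They come from RefSeq (GRCm38.p6), which gave 122 of the 148 members and 15 of the 16 called members, all but Slc11a2. Each runs 5′ to 3′ on the gene's strand from 250 bases before to 50 after an annotated start, and capitals mark motif matches.
Slc20a1, chr2:129198523-129198822, + strand: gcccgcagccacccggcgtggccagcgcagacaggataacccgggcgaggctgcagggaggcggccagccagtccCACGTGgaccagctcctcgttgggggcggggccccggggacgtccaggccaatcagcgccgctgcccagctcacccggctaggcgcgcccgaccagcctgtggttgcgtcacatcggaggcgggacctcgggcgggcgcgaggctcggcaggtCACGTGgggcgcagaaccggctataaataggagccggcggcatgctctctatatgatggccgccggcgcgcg
Slc25a47, chr12:108850879-108851178, + strand: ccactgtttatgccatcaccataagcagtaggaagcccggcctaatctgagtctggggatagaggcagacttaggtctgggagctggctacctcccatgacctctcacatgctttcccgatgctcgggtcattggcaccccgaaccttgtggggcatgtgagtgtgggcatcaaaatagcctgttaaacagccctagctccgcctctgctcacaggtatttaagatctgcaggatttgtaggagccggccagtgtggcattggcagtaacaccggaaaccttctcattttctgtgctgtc
Slc22a30, chr19:8405056-8405355, - strand: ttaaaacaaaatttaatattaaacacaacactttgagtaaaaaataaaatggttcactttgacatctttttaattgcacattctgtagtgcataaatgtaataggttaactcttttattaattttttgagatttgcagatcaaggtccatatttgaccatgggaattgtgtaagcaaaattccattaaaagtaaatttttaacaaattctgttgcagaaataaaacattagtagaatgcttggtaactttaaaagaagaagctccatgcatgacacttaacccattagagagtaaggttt
Slc3a1, chr17:85028097-85028396, + strand: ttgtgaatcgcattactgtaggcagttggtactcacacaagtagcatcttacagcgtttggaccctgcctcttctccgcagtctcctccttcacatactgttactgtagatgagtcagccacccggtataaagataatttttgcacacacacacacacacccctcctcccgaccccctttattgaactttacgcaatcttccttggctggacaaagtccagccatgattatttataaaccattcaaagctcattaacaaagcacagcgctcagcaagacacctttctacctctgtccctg
The motifs searched on both strands were the sterol regulatory element TCACNCCAC, the E-box CACGTG, which SREBPs can also bind, a direct repeat 1 of nuclear receptors and the element TGATGNAA of the amino acid response. They were present in 1.24%, 7.15%, 0.0639% and 3.97% of all 32851 promoters of 300 bases. Of 173 promoters of members, 21 held an E-box (12.1%) and 4 the sterol regulatory element (2.31%; Slc23a2, Slc2a8 and Slc9a3r2, none called). Of 21 promoters of called members, 4 held an E-box (19%) and 0 held the others. Overlapping windows of Slc12a7 among these hold the same E-box, so that site enters the share more than once. By gene, E-boxes were at Slc12a7, Slc20a1 and Slc26a1, of 15 called members with a promoter. A share by gene over all genes was not computed, so this count cannot show an excess. The Slc20a1 promoter has E-boxes starting at positions -175 and -22 from the start site. A second annotated start of Slc20a1 has none. The E-box was also found at Slc12a7, which fell in TgSREBP-1a, and at Slc26a1, which was called in neither transgenic pool against wild type. None of the 4 motifs lies in the windows of Slc25a47, Slc22a30 or Slc3a1, nor in those of Slc25a25, which are not printed. A match describes letters in a window and is no measured binding site.

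Of 16 metal carriers, 1 fell in TgSREBP-1a (2.59% of all genes did) and 1 rose in TgSREBP-2 (2.18% of all genes did). Slc11a2, which brings ferrous iron into the cytosol, had log2 signals of 6.18 and 6.06 in TgSREBP-1a against 7.04 and 6.90 for its wild type and 7.23 and 7.02 for TgSREBP-2. TgSREBP-1a lay below all other arrays, at -0.86 ± 0.09 against wild type (1.81-fold, adjusted p = 0.000125) and -1.01 ± 0.09 against TgSREBP-2 (adjusted p = 4.71e-05). A second probe set of the gene did not follow: it read 6.87 and 6.91 in TgSREBP-1a against 6.91 and 6.89. The mean of both probe sets gave -0.43 and no call. Which transcript forms the probe sets cover was not tested.

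Slc31a1, the main copper uptake transporter, read 9.61 and 9.42 in TgSREBP-2, compared with 9.0 and 8.84 for wild type and 9.01 and 8.59 for TgSREBP-1a. TgSREBP-2 did not overlap with either, but its rise of 0.60 ± 0.13 (adjusted p = 0.0276) was the smallest called there. Leaving out wild type replicate 1, wild type replicate 2 or TgSREBP-2 replicate 1 ended the call (limma adjusted p = 0.0616, 0.138 and 0.225). So did, by fold, quantile normalization (0.50), with the mean of its probe sets (0.46) and with 32 added (0.57). Between the transgenic pools the gene was lower in TgSREBP-1a (-0.72 ± 0.13, adjusted p = 0.00495). That call fell short of 1.5-fold without replicate 2 of TgSREBP-1a (-0.51) and was lost with only the 4 arrays compared in the fit (limma adjusted p = 0.0599). Its other probe set gave -0.55 for the same comparison (adjusted p = 0.00102) and 0.33 for TgSREBP-2 against wild type.

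The zinc transporters gave a split result. Slc39a4, an uptake transporter of the ZIP family, read 8.84 and 8.91 in TgSREBP-1a against 8.80 and 8.88 on the probe set used, a difference of 0.03 (adjusted p = 0.842). On its other probe set it read 7.01 and 7.13 in TgSREBP-1a. The values were 7.82 and 7.74 for TgSREBP-2, 8.11 and 7.99 in high-protein wild type, 8.57 and 8.72 in chow-fed wild type and 8.96 and 9.11 in the Scap knockout. There TgSREBP-1a was lowest, at -0.98 against wild type (adjusted p = 5.04e-05 in a fit of all single probe sets), and the Scap knockout was highest. Limma called that difference. On this probe set it also called TgSREBP-1a lower than TgSREBP-2 (-0.71, adjusted p = 0.000721). High-protein wild type was called lower than chow-fed wild type there (-0.59, adjusted p = 0.00281). With the probe set used, Slc39a4 had no call in these comparisons. Slc39a9, another ZIP transporter, lay just outside the fold threshold in TgSREBP-1a (-0.58 ± 0.09, adjusted p = 0.00132), and Slc30a5, a zinc exporter with dim signals of 4.07 to 4.71, stood at -0.48 and -0.38 in TgSREBP-1a and TgSREBP-2 (adjusted p = 0.00536 and 0.0475), with -0.31 and -0.11 on its other probe set (adjusted p = 0.151 and 0.725). Slc11a1, a metal transporter of macrophages, stood at 0.39 ± 0.08 in TgSREBP-1a (adjusted p = 0.00859). Of 11 measured macrophage markers, 5 rose there (4.78% of all genes did). The list's summed linear signal was 4909 to 5231 against 3188 to 3250 in wild type. Chow-fed wild type read 4381 to 4598. Their part in the value of Slc11a1 was not tested. In pooled liver RNA, fewer cells of a type and less RNA per cell cannot be told apart.

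**Figure D3:**
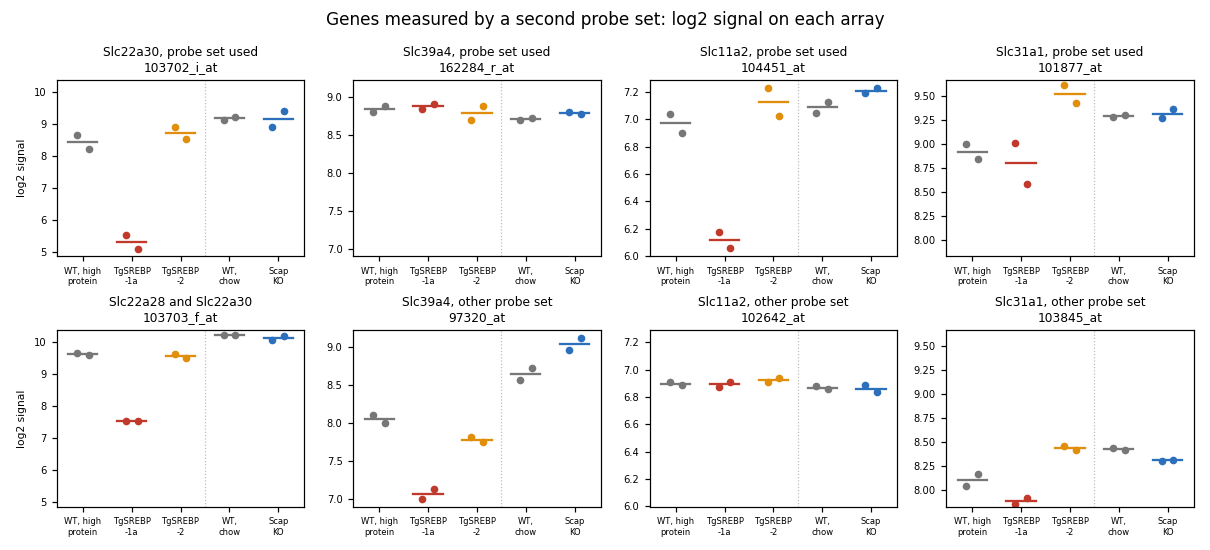
Log2 signal (y axis) on each array for 4 genes with a second probe set, with the set used above and the other below on a shared scale per gene; points are arrays and bars their means. The Slc22a30 probe set (top) and the one assigned to both Slc22a28 and Slc22a30 (bottom) are lowest in TgSREBP-1a. For Slc39a4 (bottom, 7.01 and 7.13) and Slc11a2 (top, 6.18 and 6.06) 1 probe set falls in TgSREBP-1a and its partner stays level.

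Amino acid and amine carriers formed the largest class, with 32 members. Limma called 0 of the 32 in TgSREBP-1a, where 4 had an adjusted p under 0.05 alone (16.6% of all genes did), and 1 rose in TgSREBP-2 (2.18% of all genes did). Slc3a1, the heavy subunit of the cystine and basic amino acid transporter, read 8.99 and 9.07 in TgSREBP-2, above wild type at 8.30 and 8.39 and TgSREBP-1a at 8.04 and 8.02. In chow-fed wild type it read 7.89 and 7.88, and in the Scap knockout 7.69 and 7.58. None of the 5 pools overlapped. It rose 1.61-fold in TgSREBP-2 (0.68 ± 0.08, adjusted p = 0.000589). The values were -0.32 ± 0.08 in TgSREBP-1a (adjusted p = 0.0193) and -0.25 ± 0.08 in the Scap knockout (adjusted p = 0.201), neither at 1.5-fold. The transgenic pools differed by -1.0 ± 0.08 (adjusted p = 1.34e-05), lower in TgSREBP-1a. Its light subunit partner Slc7a9 lay at -0.15 and -0.12 in the transgenic pools (adjusted p = 0.277 and 0.515).

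Exocrine pancreas transcripts also varied among the pools. Summed linear signals of the 9 markers measured of 17 listed were 24302 to 24609 in TgSREBP-2, 17804 to 18325 in high-protein wild type, 8803 to 8966 in chow-fed wild type, 2231 to 2429 in the Scap knockout and 1848 to 2009 in TgSREBP-1a. Of the 9, 8 fell in TgSREBP-1a (2.59% of all genes did) and 8 in the Scap knockout (76 of 8251 genes did). In TgSREBP-2, 2 rose (2.18% of all genes did). For Slc3a1 as for the marker sum, TgSREBP-2 read highest and high-protein wild type next. The Scap knockout lay below chow-fed wild type in both. TgSREBP-1a lay above chow-fed wild type for Slc3a1 and below it for the marker sum. Slc3a1, Slc26a1 and Slc38a2 were highest in TgSREBP-2, and Slc25a25 was lowest in TgSREBP-1a and next lowest in the Scap knockout. Arrays of both wild type pools and TgSREBP-2 overlapped for Slc25a25, while their marker sums did not. Other called members had another order: Slc20a1 was highest in TgSREBP-1a, Slc25a47 in high-protein wild type and Slc22a30 in the chow-fed pools. The part of pancreatic RNA in the values of these genes was not tested.

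Slc38a2, a sodium-coupled neutral amino acid transporter, had unequal duplicates: 7.35 and 6.76 for TgSREBP-2, 6.26 and 5.37 for TgSREBP-1a, while wild type read 6.17 and 6.09. The wild type values lay between those of the TgSREBP-1a duplicates, and the TgSREBP-2 arrays lay above both pools. In TgSREBP-2 the gene stood 0.93 ± 0.27 above wild type without passing the test (adjusted p = 0.0841). It was called there with the replicate number as a block (adjusted p = 0.00103) and with only the 4 arrays compared in the fit (adjusted p = 0.0492). Its 3 other probe sets, all dim, lay between -0.12 and 0.05 in the same comparison. TgSREBP-1a against TgSREBP-2 gave -1.24 ± 0.27 (adjusted p = 0.0124). Limma did not keep that call with TgSREBP-1a replicate 2 left out (-0.80, adjusted p = 0.057), with TgSREBP-2 replicate 1 left out (-0.95, adjusted p = 0.104), with only the 4 arrays compared in the fit (adjusted p = 0.0883), and with the mean of its 4 probe sets (-0.26). Slc3a2, the heavy chain shared by several Slc7 transporters, stood at 0.51 ± 0.10 and 0.54 ± 0.10 in the transgenic comparisons (adjusted p = 0.00535 and 0.0105), both short of 1.5-fold. Its light chains Slc7a5, Slc7a6, Slc7a7, Slc7a8 and Slc7a11 lay between -0.13 and 0.18 in both. Slc38a4, an amino acid transporter abundant in liver, was at 0.03 and 0.23 (adjusted p = 0.865 and 0.145). The creatine transporter Slc6a8 was at -0.54 in TgSREBP-1a (adjusted p = 0.00431) but at 0.11 on its other probe set (adjusted p = 0.679). The taurine transporter Slc6a6 was at 0.49 in TgSREBP-2 (adjusted p = 0.0303) and at 0.13 on its other probe set (adjusted p = 0.56).

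The other classes held no call in a comparison with wild type of the same diet. Of 8 sugar carriers, Slc2a1, the glucose transporter of most cells, stood at 0.05 ± 0.12 and -0.10 ± 0.12 in the transgenic comparisons. The class ran from -0.27 to 0.10 in TgSREBP-1a. Of 11 nucleotide sugar and sugar phosphate carriers, Slc37a4, which moves glucose 6-phosphate into the endoplasmic reticulum, was at -0.34 ± 0.12 in TgSREBP-1a but 0.22 ± 0.12 for TgSREBP-2. Those pools differed by -0.55 ± 0.12 (adjusted p = 0.0141), short of 1.5-fold. Among 5 carriers of fatty acids and acetyl-CoA, Slc27a2, a very long chain fatty acid transporter and acyl-CoA synthetase, stood at -0.54 ± 0.17 in TgSREBP-1a (adjusted p = 0.0542), and was called after quantile normalization (-0.59, adjusted p = 0.0136). Its duplicates were 10.03 and 9.60 against 10.55 and 10.15 and did not overlap. Of 6 vitamin carriers, the folate transporter Slc46a1 was at 0.46 ± 0.10 in TgSREBP-2 (adjusted p = 0.0294) and -0.40 ± 0.10 in the Scap knockout (adjusted p = 0.0945). Monocarboxylate (3), choline and other (5), nucleoside (2), peptide (1) and adaptor (3) members lay between -0.42 and 0.44 in TgSREBP-1a.

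**Figure D4:**
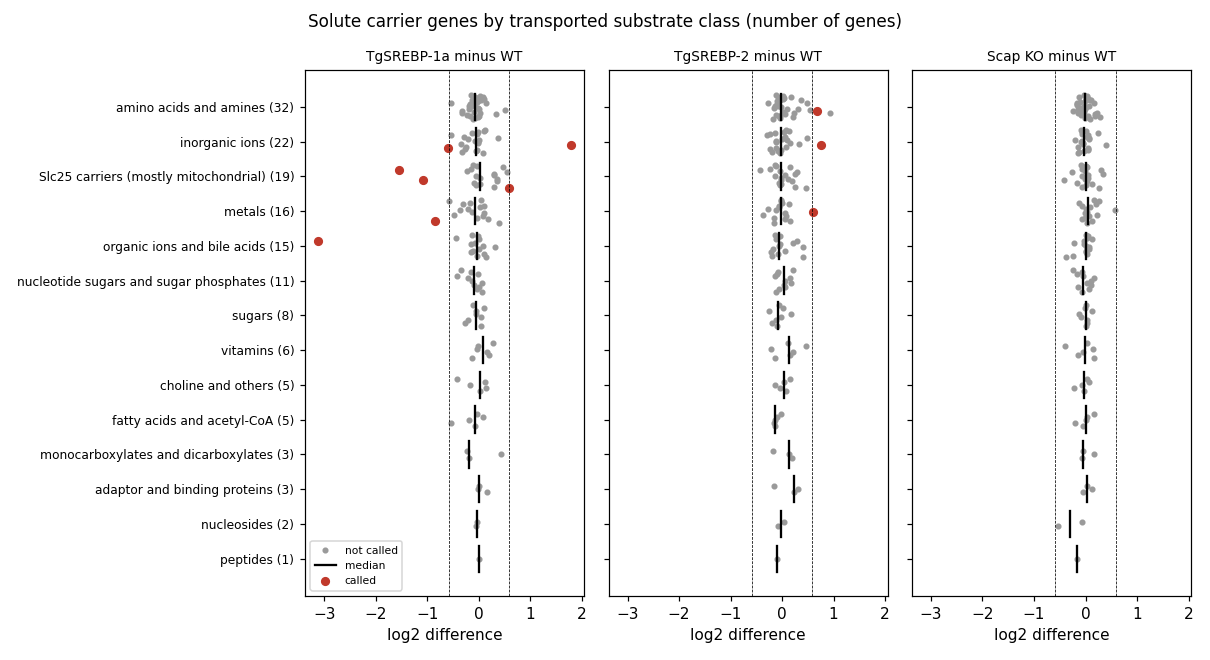
Log2 difference (x axis) of each solute carrier gene, grouped by substrate class with the number of genes (y axis), for TgSREBP-1a, TgSREBP-2 and Scap knockout against wild type. Red points are called genes, black bars class medians and dashed lines 1.5-fold. Called genes lie in 4 classes for TgSREBP-1a (organic ions, Slc25 carriers, inorganic ions and metals) and in 3 for TgSREBP-2.

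In the Scap knockout, the solute carriers spread from -0.53 to 0.57. The lower end was Slc29a1, an equilibrative nucleoside transporter, at 9.92 and 9.95 against 10.49 and 10.45 in chow-fed wild type. Its duplicates lay close, and the pools differed by -0.53 ± 0.07 (adjusted p = 0.00192), 1.45-fold and just short of the threshold. Its dimmer probe set stood at 0.06. Slc25a25 was the only other member with an adjusted p under 0.05, against 2.84% of all genes. The upper end was the zinc transporter Slc39a1, at 8.90 and 9.10 against 8.38 and 8.47, a difference of 0.57 ± 0.22 (adjusted p = 0.371) in a gene whose duplicates in high-protein wild type were 8.12 and 8.84. Its other probe set gave 0.0065. Across the 148 members, the differences in TgSREBP-2 and in the Scap knockout, which share no arrays, had a Pearson r of -0.03 and a Spearman rho of -0.03. Over all 8251 genes these were -0.32 and -0.11. For TgSREBP-1a and the knockout, r was 0.05 over the members and -0.02 over all genes, with rho at -0.0095 and -0.01. Genes are not independent replicates, so both are given as descriptions.

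Between the transgenic pools, 1 member was higher and 8 were lower in TgSREBP-1a, 0.676% and 5.41% of the members against 2.24% and 2.95% of all genes, or 6.08% against 5.19% either way. Slc20a1 was the one higher. Slc22a30, Slc38a2, Slc25a47, Slc25a25, Slc11a2, Slc3a1, Slc31a1 and Slc26a1 were lower. At an adjusted p under 0.05 alone, 3 members were higher and 18 lower, 14.2% against 11% of all genes. Whether nuclear SREBP protein was alike in both lines was not analysed here.

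The wild type pools differ in diet, age and injections together, and these cannot be told apart. Between them 3 members were higher and 4 lower on the high-protein diet, against 1.28% and 4.34% of all genes. Either way that is 4.73% of the members against 5.62% of all genes, and 25% against 22.7% at an adjusted p under 0.05 alone. Slc25a47 was 2.61-fold higher (1.39 ± 0.08, adjusted p = 5.81e-06), Slc4a4 at 0.70 ± 0.10 (adjusted p = 0.00147) and Slc22a5 at 0.59 ± 0.10 (adjusted p = 0.00335). Markers of other cells moved with this comparison. Of 9 pancreas markers 7 were called higher, and of 11 macrophage markers 4 were called lower, with summed macrophage signals of 3188 to 3250 against 4381 to 4598. Their part in these values was not tested. Slc35b1 and Slc35d1, placed with the nucleotide sugar carriers by family number only, were lower. Slc35b1 read 8.93 and 8.85 against 9.57 and 9.54, and Slc35d1 read 8.59 and 8.51 against 9.18 and 9.19. They differed by -0.66 ± 0.09 and -0.64 ± 0.10 (adjusted p = 0.00103 and 0.00203). The peroxisomal carrier Slc25a17 (-0.59 ± 0.11) and Slc22a30 (-0.75 ± 0.21) were also lower (adjusted p = 0.00392 and 0.0296). Slc22a30 was no longer called by limma without either chow-fed array (adjusted p = 0.102 and 0.165) or without high-protein replicate 2 (adjusted p = 0.163). Slc25a17 and Slc22a5 fell short of 1.5-fold without high-protein replicate 1 (-0.46 and 0.51), and Slc22a5 also without chow-fed replicate 2 (0.58). Quantile normalization ended the calls of Slc35b1, Slc35d1 and Slc25a17. With 32 added to the linear signals, those of Slc4a4, Slc22a5 and Slc25a17 were lost, and median centring ended that of Slc22a5. The filter for dim genes left out Slc4a4. Of the 32 amino acid carriers, 10 passed the adjusted p without reaching 1.5-fold, led by Slc6a13, a GABA transporter, at -0.48 and the glutamine transporter Slc1a5 at 0.47 (adjusted p = 0.00636 and 0.00501).

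Transporters and channels of liver with other symbols were counted beside them, 16 measured of 28 listed. In TgSREBP-1a 2 of the 16 rose, beside 4.78% of all genes, and in TgSREBP-2 4 rose, beside 2.18%, with none called lower. The Scap knockout had 1 lower, where 76 of all 8251 genes were lower. Aqp8, a water channel, rose 3.33-fold and 2.99-fold in TgSREBP-1a and TgSREBP-2, and the bile acid exporter Abcc3 1.86-fold and 1.91-fold. The high-protein wild type that both pools are set against was itself low for Aqp8, 2.43-fold below chow-fed wild type (-1.28 ± 0.09, adjusted p = 9.99e-06), and the list's median between the wild type pools was -0.17. Abcc6 fell in the Scap knockout by 0.77 ± 0.09 (adjusted p = 0.00048). The list's medians were 0.13, 0.16 and -0.05, beside -0.03, -0.02 and 0.0047 over all genes.

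Marker lists of other cells gave these counts. Besides pancreas and macrophages, calls in TgSREBP-1a were 2 higher of 6 endothelial, 1 higher of 8 lymphocyte, 1 higher and 1 lower of 3 red cell, 1 higher and 1 lower of 8 hepatocyte and 1 lower of 5 adipocyte markers. The matching shares of all 8251 genes were 4.78% for rises and 2.59% for falls. In TgSREBP-2, 3 of 11 macrophage and 1 of 3 red cell markers rose (2.18% of all genes did). In the Scap knockout 1 of 8 lymphocyte markers fell, as did 76 of 8251 genes. In lists of 3 to 8 genes, 1 call cannot show an excess over these shares. Limma called 0 of 3 cholangiocyte, 8 stellate cell, 7 neutrophil and 6 kidney markers in these 3 comparisons, with 0 to 5 per list at an unadjusted p under 0.05. Slc4a1, the anion exchanger of red cells, was at -0.20 and -0.01 in TgSREBP-1a and TgSREBP-2 (adjusted p = 0.316 and 0.975).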

How the data were processed

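The authors deposited 1 table of log2 signals for 12488 probe sets on 10 arrays. RMA, of unstated version, is the method in the submitters' processing notes. The design text of the series names Affymetrix' Microarray Suite instead. Values ran from 2.68 to 14.03 with array medians of 6.37 to 6.40, so they were used as log2 values, already normalized between arrays, with no detection calls.

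The platform annotation named the probe sets (10833 with 1 symbol, 396 with several, which were left out), and symbols were updated by gene ID through RefSeq (10817 matched; no member was renamed). For 5 comparisons, limma 3.58.1 (lmFit and eBayes, R version 4.3.3) fitted all 10 arrays with a mean for each pool, which left 5 residual degrees of freedom. Errors after ± are moderated standard errors. A check on simulated data used independent noise with 1 spread per gene for all arrays. It had neither the larger spread of the high-protein pools nor correlated duplicate differences. How the fit behaves under these was not tested. The spread between duplicates was larger in the high-protein pools, and the fit shares 1 variance per gene.

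Members, substrate classes (by family number), marker lists and motifs were chosen with earlier results of these data known. Named members are the called ones with 4 array pairs of 1 sign, up to 3 bright members per class, and those next to the fold threshold. Others, such as subunit partners and members with an adjusted p under 0.05, were chosen after their values were seen. The alternatives were another normalization, probe set choice, filter, offset, block, weights, trend, arrays in the fit, and leaving out each array.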

Additional observations from a re-analysis of the deposited data

How the results depend on the processing

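Of 26 calls of a member in a comparison, 11 held under every alternative run, 15 were lost under at least 1, and 0 changed sign. Those that held were Slc22a30, Slc25a47, Slc25a25 and Slc20a1 for TgSREBP-1a against wild type and also against TgSREBP-2, Slc3a1 for TgSREBP-2 against both, and Slc25a47 between the wild type pools. Members called higher in TgSREBP-1a (2) became 1 with quantile normalization and 1 with 32 added, losing Slc25a10. Between the wild type pools, those higher (3) became 1 with 32 added, and those lower (4) became 1 with quantile normalization. Leaving out each array gave 2 to 4 members higher and 5 to 9 lower in TgSREBP-1a, 1 to 5 higher and 0 to 0 lower for TgSREBP-2, 0 to 0 in the Scap knockout, 1 to 2 higher and 6 to 11 lower in TgSREBP-1a against TgSREBP-2, and 2 to 4 higher and 3 to 4 lower between the wild type pools. Calls over all genes also changed with the array left out, and these ranges are given without a share over all genes. Arrays of different pools share only a replicate number. With the replicate number as a block within each diet set, the counts were 2 higher and 5 lower in TgSREBP-1a, 4 higher and 0 lower for TgSREBP-2 (adding Slc38a2), 0 and 0 in the Scap knockout, 1 and 8 between the transgenic pools, and 3 and 4 between the wild type pools. Over all genes the block gave 401 higher and 217 lower in TgSREBP-1a (394 and 214 without it). For TgSREBP-2 it gave 196 and 33 (180 and 32), and in the Scap knockout 64 and 86 (61 and 76). Between the transgenic pools it gave 191 and 251 (185 and 243), and between the wild type pools 112 and 367 (106 and 358). Differences between duplicate arrays correlated at 0.46 to 0.61 among the high-protein pools and at 0.30 between the chow-fed pools. Where leaving out an array leaves 1 in a pool, it is assumed to vary like the other pools. For the other alternatives the cause of a change was not tested. With 1 pool per group, the spread between mice limits every result.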
